A study of Drosophila melanogaster with 13 samples.

Results

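The 2 peak lists described here came from salivary glands of OrR, a wild-type strain of Drosophila melanogaster: 1 ChIP-seq library of gamma-H2Av and 1 of rabbit IgG, a control antibody with no intended target. Their members are all peaks on placed sequence, that is, the arms of chromosomes 2 and 3 and the X (called the 5 major arms here), chromosome 4, and 6 Het scaffolds, which hold assembled pericentric heterochromatin. This rule took 1233 of the 5175 gamma-H2Av peaks and 1080 of the 5684 IgG peaks, together 2313 of 10859 in the pair of lists and of 83082 in the series. The other 3942 and 4604 peaks lay on U, Uextra or the mitochondrial genome and were left out. The series holds 13 samples and 9 peak lists, 1 sample per group. Glands taken by hand from wandering larvae were frozen and pooled until there was enough material for ChIP with anti-gamma-H2Av from Rockland or rabbit IgG from Abcam. Both libraries were called against 1 input, chromatin of the same strain without antibody. Positions from 3 other lists were also used: gamma-H2Av from glands of the SuUR mutant, prepared alike, and guinea pig IgG from formaldehyde-fixed ovarian egg chambers of OrR (stage 10, and stages 12-13 together), each called against its own input. With 1 library a side and no replicate, no test between the antibodies was possible. Differences below are between these 2 libraries, and all intervals cover counting error only.

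H2Av is the fly histone variant whose phosphorylated form, gamma-H2Av, is laid down around DNA double-strand breaks, as gamma-H2AX is in mammals. It spreads from a break along the chromatin fibre, so the mark is a wide domain rather than a point. Salivary gland cells replicate their DNA many times without dividing and form polytene chromosomes. Some late replicating stretches of the arms and most pericentric heterochromatin are copied less often than the rest, a state called underreplication, in which forks stall and DNA copies are fewer. The comparison with IgG asked which gamma-H2Av peaks were not also seen with a control antibody.

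The gamma-H2Av library held 19208769 tags after removal of duplicates, the IgG library 16337826 and the input 24988027. Duplicates made up 22.6% and 25.9% of the gamma-H2Av and IgG tags. MACS, the peak caller, estimated fragments of 161 bp for gamma-H2Av and of 114 bp for IgG, and the narrowest placed peaks were 289 and 256 bp. Width differences due to fragment length and to the antibody cannot be told apart. The authors' false discovery rate, the share of peaks also found with ChIP and input exchanged, had a median of 1.39% for placed gamma-H2Av peaks and 8.37% for IgG. Only 37 of the 1080 IgG peaks had a rate of 5% or less, whereas all 1233 gamma-H2Av peaks did.

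Most peaks of either list had no counterpart in the other. A peak was called unshared when it overlapped no peak of the other list by 1 bp. Of the placed gamma-H2Av peaks 804 were unshared, or 65.2% (Wilson 95% interval 62.5 to 67.8%), and of the placed IgG peaks 603, or 55.8% (52.9 to 58.8%). Read against these shares, the major arms stood higher for both lists: 501 of 677 gamma-H2Av peaks (74.0%, 70.6 to 77.2%) and 339 of 519 IgG peaks (65.3%, 61.1 to 69.3%). The Het scaffolds stood lower, with 297 of 550 (54.0%, 49.8 to 58.1%) and 258 of 555 (46.5%, 42.4 to 50.6%). With the 519 arm peaks of highest score in each list, the 2 shares were 70.9% and 69.9%. At equal list lengths the arm shares were thus nearly the same.

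The arms differed in how many gamma-H2Av peaks they held. Arm 2L had 218 unshared peaks of 273, 3L had 122 of 191 and X 94 of 113. Arm 3R had 46 of 61, and 2R only 21 of 39. IgG was spread more evenly, with 106 unshared peaks on 2L, 84 on 3L, 66 on X, 51 on 2R and 32 on 3R. On 2R the order was reversed: unshared IgG peaks covered 239 kb there and unshared gamma-H2Av peaks 87.4 kb. On X unshared gamma-H2Av peaks covered 453 kb and unshared IgG peaks 253 kb.

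On the arms the unshared gamma-H2Av peaks were narrower than the unshared IgG peaks, while among shared peaks the order turned. Over all arm peaks the median widths were close, 2691 bp (2504 to 2986 bp) for gamma-H2Av and 2795 bp (2434 to 3331 bp) for IgG. Unshared gamma-H2Av peaks had a median width of 2486 bp (order-statistic 95% interval 2128 to 2692 bp, n = 501) and unshared IgG peaks 3688 bp (3340 to 4113 bp, n = 339). The gap was smaller without 2L, with medians of 3491 and 3706 bp, and with equal numbers of peaks, with 3171 and 3577 bp. Shared gamma-H2Av peaks had a median of 3609.5 bp (2944 to 4252 bp, n = 176) and shared IgG peaks 1591 bp (1337 to 1827 bp, n = 180). Peaks under 1 kb made up 16.6% of the unshared and 3.98% of the shared gamma-H2Av peaks, against 13.0% and 28.3% for IgG.

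**Figure D1:**
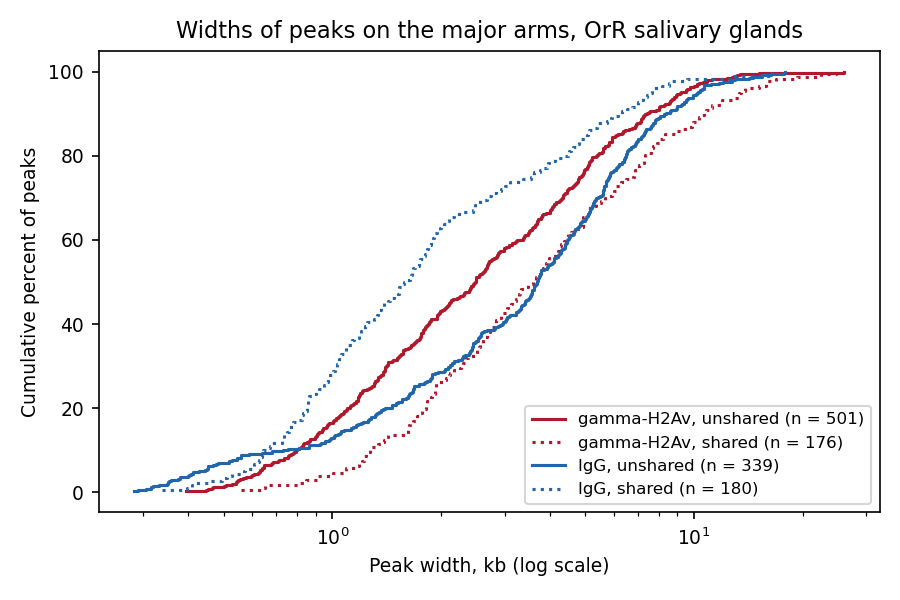
Cumulative percent of peaks on the major arms (y axis) against peak width in kb on a log scale (x axis), for unshared (solid) and shared (dotted) peaks of gamma-H2Av (red) and IgG (blue). The shared IgG curve lies farthest left, with a median of 1591 bp, and the shared gamma-H2Av and unshared IgG curves lie to the right, with medians of 3609.5 and 3688 bp.

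Where peaks were shared, the IgG peak tended to be a narrow piece of a wider gamma-H2Av peak. Of the shared arm peaks, 157 of 176 gamma-H2Av peaks and 158 of 180 IgG peaks met a single partner. In the 118 arm pairs in which each peak met only the other, gamma-H2Av was the wider in 97 (82.2%, 74.3 to 88.1%), and the median ratio of widths was 1.98. The IgG peak lay wholly inside the gamma-H2Av peak in 64 pairs (54.2%, 45.3 to 63.0%), and the reverse held in 9. The Het scaffolds gave the same picture, with gamma-H2Av wider in 137 of 162 pairs (84.6%, 78.2 to 89.3%). Summits of an arm pair lay a median of 1134 bp apart (quartiles 375 and 2415 bp), and those of a Het pair 259 bp. Tag density in the arm pairs had a median of 3.04 tags per kb and 1e+06 library tags for gamma-H2Av and 3.15 for IgG. The gamma-H2Av peak was the denser in 49 of 118 pairs. Shared gamma-H2Av peaks were thus longer than their IgG partners and not denser.

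The unshared gamma-H2Av peaks stood close together. On the arms the median distance from an unshared gamma-H2Av peak to the nearest other one was 0.597 kb (0.306 to 1.01 kb), against 11.8 kb (8.57 to 19.4 kb) for IgG. Of the gamma-H2Av peaks 272 of 501 (54.3%) had such a neighbour within 1 kb and 407 (81.2%) within 10 kb, against 75 (22.1%) and 160 (47.2%) of 339 for IgG. Many gaps were short: 90 of 496 gaps between consecutive gamma-H2Av peaks were under 100 bp and 175 under 1 kb, against 23 and 39 of 334 for IgG. With peaks of a list within 1 kb merged first, the medians were 7.23 kb for gamma-H2Av and 22.1 kb for IgG. On the Het scaffolds the medians were 2.92 kb (2.10 to 3.88 kb) and 5.53 kb (3.95 to 8.03 kb).

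**Figure D2:**
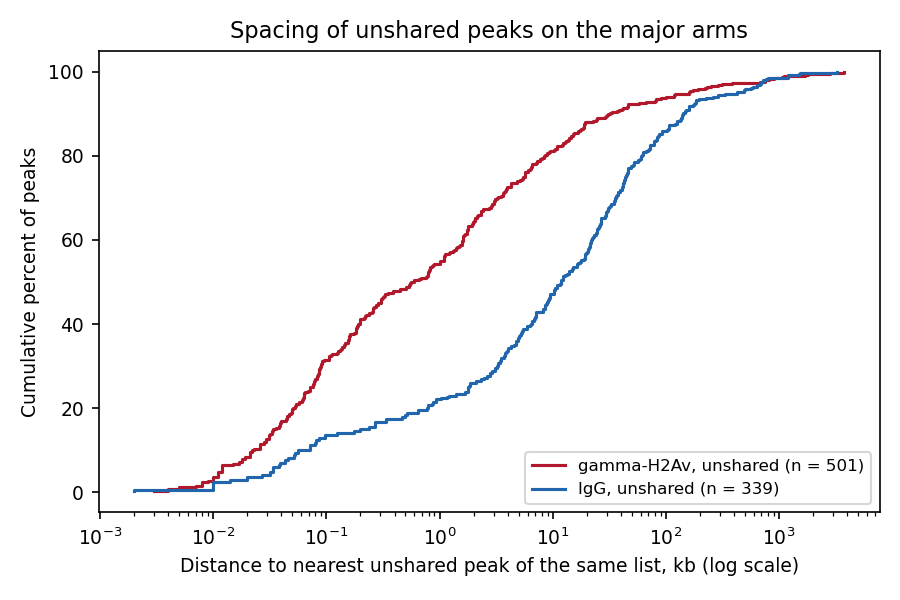
Cumulative percent of unshared peaks on the major arms (y axis) against the distance in kb to the nearest unshared peak of the same list (x axis, log scale). The gamma-H2Av curve (red, n = 501) lies left of the IgG curve (blue, n = 339), with medians of 0.597 and 11.8 kb, and the curves meet at the right, where 31 gamma-H2Av and 48 IgG peaks lie more than 100 kb from a neighbour.

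Joined over gaps of up to 50 kb, a larger share of unshared gamma-H2Av than of IgG peaks lay in clusters. In runs of at least 5 peaks there were 25 gamma-H2Av clusters with 418 of the 501 peaks (83.4%, 79.9 to 86.4%), and 21 IgG clusters with 140 of the 339 peaks (41.3%, 36.2 to 46.6%). The gamma-H2Av clusters held 5 to 47 peaks with a median of 13, and the IgG clusters 5 to 16 with a median of 6. Only 39 gamma-H2Av peaks stood alone, against 76 IgG peaks. The gamma-H2Av clusters spanned 3716 kb, 3.12% of the arms, and the IgG clusters 2159 kb. In the lists of 519 arm peaks each, 80.2% and 46.8% of unshared peaks lay in clusters, so the contrast was also there at equal list length. The number of clusters itself depended on the rule: gaps of up to 20 kb gave 27 gamma-H2Av and 7 IgG clusters, gaps of up to 100 kb gave 26 and 26, and runs of at least 3 peaks gave 32 and 43. With peaks within 1 kb merged first there were 12 and 10, holding 57.0% and 23.8% of the merged unshared peaks.

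No gamma-H2Av cluster lay on 2R. Arm 2L held 9 clusters with 199 peaks, 3L 7 with 105, X 6 with 78 and 3R 3 with 36. The centromere ends of the arms were not set apart from the rest in these counts. Between 14 and 18 Mb on 2L alone there were 7 clusters with 174 peaks, 41.6% of all clustered peaks. Without 2L 77.4% of the unshared gamma-H2Av peaks were in clusters, and 36.5% of the IgG peaks.

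The clusters are named here by their Release 5 (dm3) coordinates and ranked by the length their unshared peaks covered. Their spans are runs of gamma-H2Av peaks that no IgG peak overlaps. Higher coverage by gamma-H2Av than by IgG within them thus follows in part from this rule. The first was X:20547999-20850660, with 18 unshared peaks over 94.9 kb and a median fold over input of 3.68, a fold being the authors' enrichment. The second was X:11982426-12253563, with 24 peaks over 87.0 kb. The sixth and seventh were also on X: X:14256273-14404668, with 12 peaks over 71.9 kb, and X:2866369-3008261, with 13 peaks over 70.8 kb. These 4 X clusters had median peak widths of 4633, 3495.5, 5871 and 5266 bp, wide for this list, and median folds of 3.68 to 4.24. In the sixth and seventh no gamma-H2Av peak was shared, and IgG covered 2.08 and 11.1 kb of the spans.

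On 3R the fifth cluster, 3R:12531777-12713922, held 19 unshared peaks over 77.3 kb with a median fold of 4.04 and lay in the Bithorax complex, the homeotic genes of the posterior body, by the complex's approximate position. Its widest peak, 3R:12550311-12565418, was 15.1 kb wide and stood 48.4 kb from the nearest IgG peak. The eleventh, 3R:23915621-24023170, held 11 peaks over 57.1 kb. The thirteenth, 3R:6828555-6888408, was the most continuous of the 25: 6 unshared peaks and 1 shared one covered 96.7% of its span, the median gap was 0.078 kb, and IgG covered 1.92%. Its peaks had a median width of 10840.5 bp.

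On 3L the third cluster, 3L:24078915-24525176, held the most IgG peaks of the 25, 40 in all and 9 of them unshared. It had 40 unshared and 25 shared gamma-H2Av peaks, and IgG covered 13.6% of its span. The twelfth, 3L:18250934-18365563, had 17 unshared peaks and 82.1% of its span covered by gamma-H2Av. The fourteenth, 3L:13667002-13758224, had 13 unshared peaks with a median fold of 5.69 and 75.4% covered, against 2.16% for IgG.

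Of the 9 clusters on 2L, 6 had a median width under 2 kb. The fourth, 2L:17558227-17942683, held 40 unshared peaks with a median width of 1155 bp and a median fold of 5.24. The tenth, 2L:16989049-17266224, held 47 peaks, the most of any cluster, with a median width of 935 bp and a median fold of 6.28, the highest of the 25. The eighth, 2L:15980635-16153318, held 38 peaks with a median of 1522.5 bp and no unshared IgG peak. The fifteenth, 2L:14776835-14888376, held 22 peaks with a median of 1829.5 bp. The ninth, 2L:15371189-15475625, had 14 peaks of a median 4461 bp and a median fold of 4.10, and 2 smaller 2L clusters had medians of 3969 and 2501 bp. The other 10 clusters held 5 to 19 peaks over 5.82 to 37.3 kb.

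**Figure D3:**
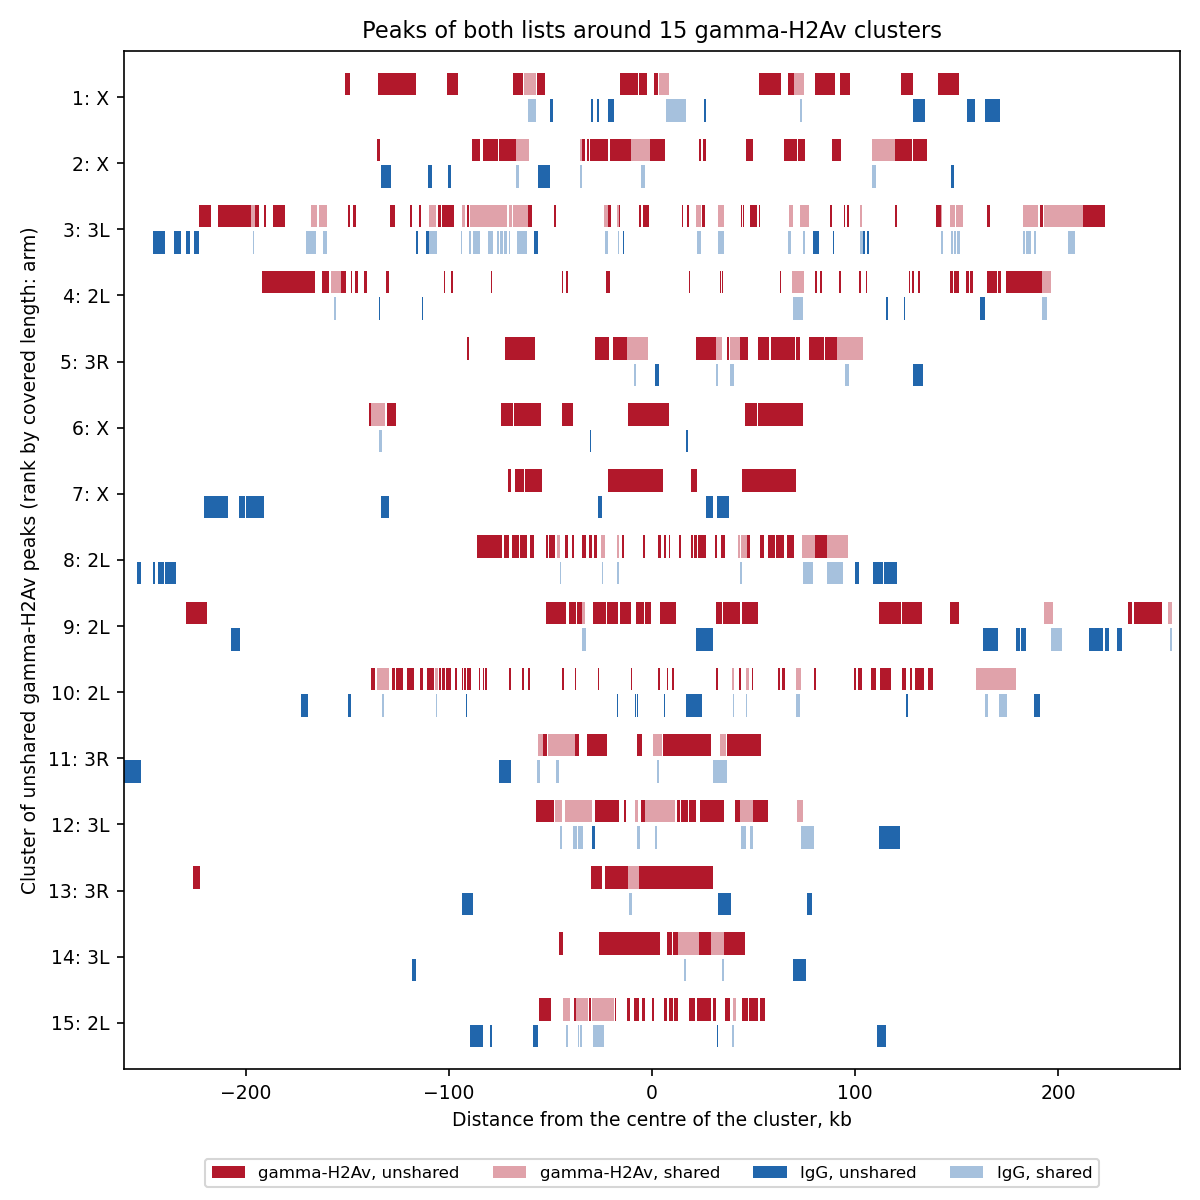
Peaks of both lists around the centre of the 15 ranked gamma-H2Av clusters, 1 row each (y axis: rank and arm; x axis: distance from the cluster's centre in kb). Bars are peaks to scale, gamma-H2Av red above IgG blue, pale where shared. Clusters 4 and 10, on 2L, consist of thin peaks that are widest toward both edges, and cluster 13, on 3R, is almost continuous, with 96.7% of its span covered.

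Clusters of narrower peaks thus tended to have higher folds, with exceptions. X:21632770-21687448, with 5 unshared peaks, had a median width of 1031 bp and a median fold of 4.04. In 3L:13667002-13758224 these were 4048 bp and 5.69. Over the 25 clusters the Spearman correlation of median width with median fold was -0.54, and with tags per kb 0.53, given as descriptions, since width, fold and tags come from the same peaks. At a width limit of 2 kb, chosen after the values were seen, 10 clusters with a narrower median held 230 peaks, and 15 with a wider one held 188. The median of the cluster folds was 5.32 in the narrow kind (range 4.04 to 6.28) and 4.14 in the wide kind (3.68 to 5.69), so the ranges overlapped. Median gaps within a cluster had a median of 3.43 kb in the narrow and 0.495 kb in the wide kind. Gamma-H2Av covered a median of 32.3% of the span in the narrow and 52.5% in the wide kind, and IgG 5.04% and 7.39%. The excess over IgG follows in part from how the spans were chosen.

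**Figure D4:**
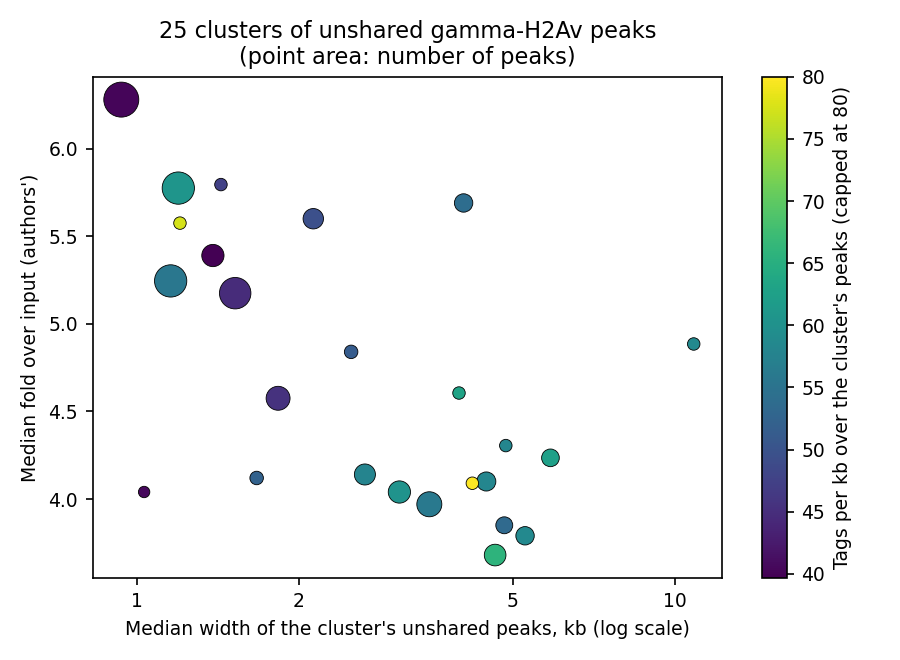
Each point is 1 of the 25 gamma-H2Av clusters, by the median width of its unshared peaks in kb (x axis, log scale) and their median fold over input (y axis). Area shows the number of peaks and colour the tags per kb of its unshared peaks, which ran from 39.7 to 125 (the colour scale stops short of the highest). Clusters of many narrow peaks lie at the upper left, the highest at a fold of 6.28, and most broad ones at the lower right.

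Coverage was seldom highest in the centre of a cluster. In 16 clusters of at least 9 unshared peaks the span was divided into 3 equal parts. The middle part had the highest gamma-H2Av coverage in 2 of them and the lowest in 9, while its median fold was the highest of the 3 in 9 and its median width the lowest in 11. The low middle was found in 5 of the 6 narrow clusters and in 4 of the 10 wide ones. Over all 16 the median coverage was 45.2% in the left, 47.5% in the middle and 55.9% in the right part, so no low middle showed in these medians. The pattern was plainest in the pair of large 2L clusters. In the fourth cluster the left, middle and right parts were covered to 33.2, 5.14 and 33.1%, and their peaks had median folds of 4.88, 6.75 and 5.25. In the tenth the parts were covered to 40.5, 6.82 and 29.7%, with folds of 6.02, 7.86 and 5.37 and median widths of 1165, 608 and 1542 bp. The 3R cluster in the Bithorax complex had another shape, with 26.8, 53.9 and 76.9% covered from low to high coordinates. The span ends where unshared peaks end, so an outer part always holds at least 1 peak.

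IgG peaks were found within these gamma-H2Av spans, and those there were narrower than elsewhere. Of the 339 unshared IgG peaks on the arms 67 (19.8%, 15.9 to 24.3%) lay in a gamma-H2Av cluster span, in 18 of the 25 clusters. Their median width was 1075 bp (811 to 1628 bp) and their median fold 4.75 (4.35 to 5.48). The 272 unshared IgG peaks elsewhere had a median width of 4316.5 bp (3790 to 4751 bp) and a median fold of 3.61 (3.46 to 3.72). An unshared peak must fit between gamma-H2Av peaks, which limits its width inside the spans. Shared IgG peaks had a median width of 1113 bp (997 to 1304 bp, n = 88) inside and 2150.5 bp (1790 to 3010 bp, n = 92) outside. They need not fit between gamma-H2Av peaks, but the choice of spans bears on them too. A wide IgG peak makes the gamma-H2Av peaks it meets shared, and clusters are built from unshared peaks only. Gamma-H2Av peaks showed the same shift: the 418 clustered ones had a median width of 2054.5 bp (1811 to 2391 bp) and a fold of 4.67 (4.54 to 4.87), against 5062 bp (4639 to 5929 bp) and 3.60 (3.44 to 3.72) for the 83 others. Tags per kb had a median of 47.5 for clustered and 86.5 for other unshared gamma-H2Av peaks. For unshared IgG peaks they were 47.0 inside and 61.0 outside the spans.

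Of the 5 unshared IgG peaks of highest fold on the arms, 4 lay in the spans of the pair of narrow-peaked 2L clusters, each within 1.6 kb of a gamma-H2Av peak. They were 2L:17812350-17812776, 2L:17770947-17771320, 2L:17133688-17134038 and 2L:17119497-17119812, with folds of 13.6, 13.0, 11.6 and 11.2. They rested on 15, 13, 12 and 11 tags (exact Poisson 95% interval for 11 tags 5.49 to 19.7). The fifth, X:21833998-21835558, had a fold of 26.8 on 238 tags. The 5 unshared gamma-H2Av peaks of highest fold were also short, 543 to 1330 bp, with folds of up to 14.8 on 23 to 53 tags. The first was X:21662648-21663249, with 23 tags (14.6 to 34.5). The others were 2R:2248521-2249382, 3L:23883034-23884363, 2L:17833433-17834225 and 3L:24353023-24353565. Most of these high folds of unshared arm peaks thus rested on few tags. This does not hold for all placed peaks: on chromosome 4 a gamma-H2Av fold of 17.5 rested on 611 tags.

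The widest unshared gamma-H2Av peak lay by itself, near the low-coordinate end of X, X:10744-36825. It was 26.1 kb wide with 5297 tags and a fold of 9.07, and the nearest IgG peak was 2680 kb away. The others of the 5 widest were 3L:15454712-15470666 (16.0 kb), the Bithorax peak above, 3R:6852046-6865466 (13.4 kb) and 2L:22544555-22557696 (13.1 kb). The 5 widest unshared IgG peaks, 14.5 to 17.8 kb, lay at 2L:22489839-22507672, 3R:23699932-23717647, 3L:9261767-9278143, 3L:17072863-17088321 and 3R:7199622-7214168. All but the first of these stood outside any IgG cluster.

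IgG clusters were looser. The first, 3L:23493178-23639938, held 16 unshared peaks over 56.0 kb with a median gap of 2.80 kb and a median fold of 3.83. The next 4 were 2L:13958401-14192838, 2L:21845500-21998058, 2L:22330428-22543834 and 2L:11485938-11648269, with 6 to 8 peaks and median gaps of 19.0 to 34.9 kb. Of the 21 IgG clusters 7 met the span of a gamma-H2Av cluster. In 4 of these 7 gamma-H2Av covered more of the IgG cluster than IgG did, for example 41.2 against 29.7 kb in 2L:22330428-22543834. Unshared IgG peaks also lay farther from the other list. On the arms 70 of 339 (20.6%) were more than 100 kb from any gamma-H2Av peak, while 21 of 501 unshared gamma-H2Av peaks (4.19%) were that far from any IgG peak.

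Peaks in both lists held fewer tags per kb than the library held on average. Over the genome size of 1.2e+08 bp in the egg chamber headers the gamma-H2Av library had a mean of 160 tags per kb, and 497 of 501 unshared (99.2%, 98.0 to 99.7%) and 174 of 176 shared arm peaks were below it. Unshared gamma-H2Av peaks had a median of 50.3 tags per kb, 31.4% of that mean. IgG had a mean of 136 tags per kb, and 329 of 339 unshared and 178 of 180 shared arm peaks were below it, with a median of 59.4 for the unshared ones. Over 169 Mb, the sum over sequences of the last peak end in any of the 9 lists, the means were 114 and 96.8, and 97.4% of the unshared gamma-H2Av and 88.2% of the unshared IgG arm peaks were below them. The caller compares each peak with input nearby, and input tags per peak were not analysed here. Both gland lists were called with an effective genome size of 2.7e+09 bp, 22.5 times the other, with which the gamma-H2Av mean is 7.11 tags per kb. The part of this setting in the calls was not tested.

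**Figure D5:**
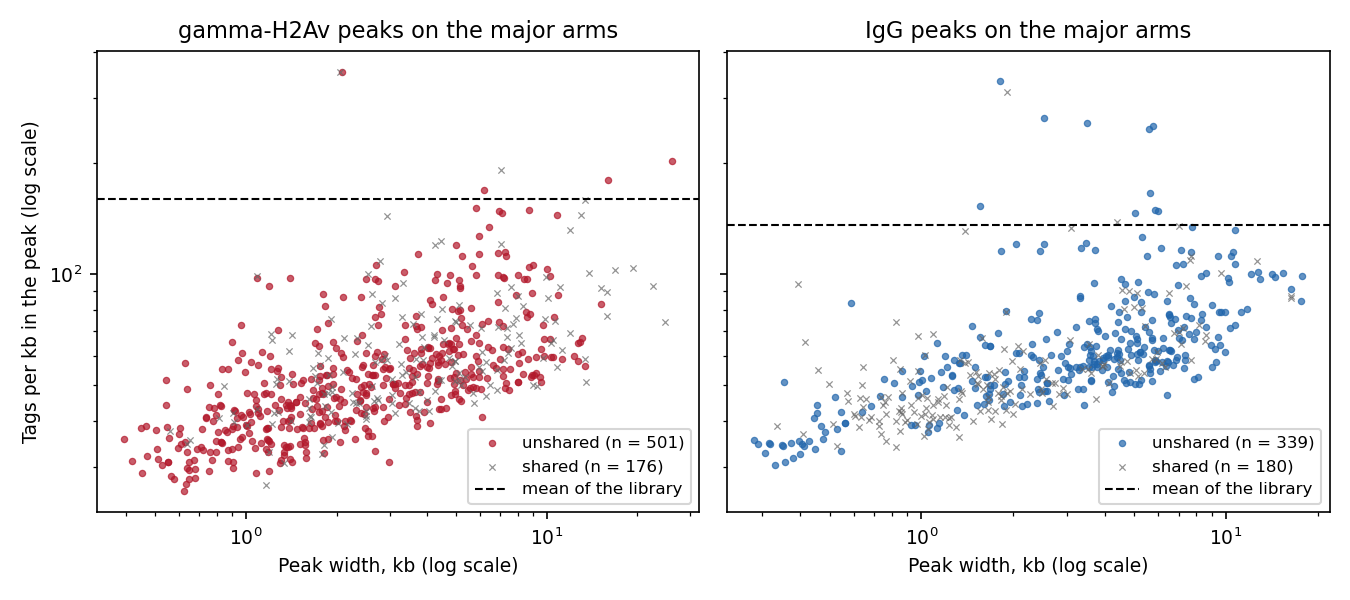
Tags per kb in each arm peak (y axis, log scale) against its width in kb (x axis, log scale), for gamma-H2Av (left) and IgG (right). Coloured circles are unshared and grey crosses shared peaks, and the dashed line is the library's mean over the genome size of the egg chamber headers, 160 and 136 tags per kb. All but 6 gamma-H2Av and 12 IgG peaks lie below the line, and the median density rises from the narrowest to the widest class of peaks in both lists.

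The few arm peaks above the mean were not in 1 place. For gamma-H2Av they were 4 unshared and 2 shared peaks, among them the X peak at the low-coordinate end (203 tags per kb) and 3L:15454712-15470666 (180 tags per kb). A pair of gamma-H2Av and IgG peaks shared 2L:17198836-17200895 and 2L:17198784-17200691, inside the span of the tenth cluster, with 354 and 312 tags per kb and folds of 2.46 and 2.25. An unshared gamma-H2Av peak of 2.09 kb, 2L:17727621-17729710, had 353 tags per kb in the otherwise thinly covered middle of the fourth cluster. Unshared IgG peaks above their mean lay both inside and outside gamma-H2Av cluster spans. Inside the seventh were X:2964085-2967577 and X:2969448-2975216, with 257 and 252 tags per kb. Outside any span was 3L:23935368-23940960, with 247.

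On the Het scaffolds unshared peaks of the 2 lists were close in fold and overlapped in the intervals of their median widths. Unshared gamma-H2Av peaks there had a median width of 1157 bp (1057 to 1273 bp, n = 297) and a median fold of 5.93, and unshared IgG peaks 908.5 bp (742 to 1253 bp, n = 258) and 5.97. No unshared gamma-H2Av peak lay more than 43.1 kb from an IgG peak. The scaffold 2RHet had 117 of 210 gamma-H2Av peaks unshared, 3LHet 83 of 160 and 3RHet 78 of 143. For IgG the numbers were 77 of 188, 78 of 170 and 82 of 157. The small scaffolds had 5 of 14 (2LHet), 6 of 9 (XHet) and 8 of 14 (YHet) for gamma-H2Av, and 14 of 24, 3 of 6 and 4 of 10 for IgG. The largest difference in covered length of unshared peaks among these 6 was on 3RHet and 2RHet: 94.3 against 134 kb on 3RHet, with IgG above, and 230 against 197 kb on 2RHet, with gamma-H2Av above.

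On chromosome 4 each list had only 6 peaks, and none was shared. The Wilson interval of the unshared share there was 61.0 to 100% for each list. It held the 65.2% of all placed gamma-H2Av peaks, and its low end was above the 55.8% of placed IgG peaks. The interval counts adjoining peaks as separate, such as the IgG peaks 4:104442-109371 and 4:109404-118882. No difference from the placed IgG share can therefore be read from it. The peaks covered 26.8 kb (gamma-H2Av) and 54.2 kb (IgG), and whether so few would overlap at random was not tested. Gamma-H2Av had 5 peaks in 1 group, 4:1328976-1350540, with folds of 3.71 to 17.5, and 1 peak at 4:862032-869925 with a fold of 5.62. IgG had its 6 peaks between 4:23909 and 4:623481, with folds of 2.85 to 5.75. Every IgG peak there had more tags per kb than its library's mean, 166 to 240, while 5 of the 6 gamma-H2Av peaks were below theirs. The nearest gamma-H2Av and IgG peaks of chromosome 4 were 239 kb apart.

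Lists called against other inputs, which the choice of peaks did not use, gave a further comparison. It is not free of that choice, since unshared gamma-H2Av peaks are those without a gland IgG peak. Sites with IgG peaks in both tissues are thus left out of that group by the rule. The egg chamber IgG lists were also called at a looser p-value limit, 1e-03, and from smaller libraries. These held 3891175 (stage 10) and 2592149 (stages 12-13) tags after filtering. Guinea pig IgG from egg chambers of stages 12-13, an ovarian tissue, met unshared gland IgG peaks of the arms in 36 of 339 (10.6%, 7.77 to 14.4%) and unshared gamma-H2Av peaks in 8 of 501 (1.60%, 0.811 to 3.12%). Among peaks of at least 2 kb the shares were 13.2% (9.52 to 18.1%) and 2.81% (1.43 to 5.44%). Shared arm peaks lay between, with 11 of 176 gamma-H2Av (6.25%) and 12 of 180 IgG peaks (6.67%). IgG of stage 10 egg chambers, a list of 249 arm peaks against 1461 for stages 12-13, met 8 unshared IgG and 2 unshared gamma-H2Av peaks. The gamma-H2Av list of the SuUR mutant, which lacks a protein needed for underreplication, held only 205 arm peaks, which limits the shares it can meet. It met 70 of 501 unshared gamma-H2Av (13.97%, 11.2 to 17.3%) and 37 of 339 unshared IgG peaks (10.9%, 8.02 to 14.7%) on the arms, and these intervals overlap. Shared arm peaks were met in larger shares, 44 of 176 for gamma-H2Av (25%, 19.2 to 31.9%) and 41 of 180 for IgG (22.8%, 17.3 to 29.4%). On the Het scaffolds the SuUR list met 155 of 297 unshared gamma-H2Av (52.2%, 46.5 to 57.8%) and 101 of 258 unshared IgG peaks (39.1%, 33.4 to 45.2%). SuUR peaks lay in 12 of the 25 cluster spans, in 7 of the 10 narrow and 5 of the 15 wide ones.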

How the data were processed

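Per the submitters' processing notes, CASAVA 1.5, BWA and the dm3 build (Release 5) were used for the gland reads. Each gland ChIP library was called on its own with MACS 1.4.2 at a p-value limit of 1e-05, with at most 1 tag per position and the larger library scaled to the smaller, per the file headers. The authors' deposited lists give tag counts per peak, a score (-10*log10 of p), an FDR in percent and an enrichment ratio, called fold here. Scores and folds were used only within a list. From SuUR gamma-H2Av (MACS 1.4.2) and egg chamber IgG (MACS 2.0.10.20130419) only positions were used.

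Overlaps, distances and clusters were computed in Python 3.11.15 with pandas 2.3.3 and scipy 1.17.1, tested on simulated lists and against bedtools 2.31.1. Shares have Wilson 95% intervals and medians 95% intervals from binomial order statistics. Clusters join unshared arm peaks of a list over gaps of at most 50 kb and hold at least 5. Regions named are the 15 gamma-H2Av and 5 IgG clusters of most unshared length, and per list the 5 widest and 5 highest-fold unshared arm peaks. Other peaks and spans named were chosen after their values were seen. The members and lists were chosen with earlier results of these data known. Tag densities are tags per kb of peak, and between libraries also per 1e+06 tags left after filtering. The only gene table at hand is of Release 6, so peaks were not placed in genes and no sequence is shown.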

Additional observations from a re-analysis of the deposited data

How the results depend on the processing

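Of 94 values under alternative settings for 12 results, 41 stayed within the interval of the value reported, or within 1.5 times for counts, and 53 moved. Merging peaks within 1 kb and leaving out 2L were chosen after seeing the data. Apart from the FDR limit, which leaves too few IgG peaks to cluster, a larger percent of unshared arm peaks lay in clusters for gamma-H2Av than for IgG in 9 of 9 settings. In the 6 settings that bear on widths and distances, gamma-H2Av peaks were also the narrower and closer together, and their unshared share was the higher, although only 70.9 against 69.9% with equal numbers. With an overlap of 50% of the shorter peak required, the unshared shares were 69.1% (gamma-H2Av) and 59.8% (IgG) on placed sequence and 78.7% for gamma-H2Av on the arms. With peaks within 1 kb counted as shared, they were 56.9% and 48.15% on placed sequence and 65.4% and 58.4% on the arms, and 33.7% of IgG peaks were in clusters. In the upper 50% by score, they were 72.1% and 64.4% on placed sequence and 82.4% and 74.5% on the arms, median widths were 4392 and 4663 bp, distances 2.01 and 26.3 kb, shares in clusters 68.2% and 18.5%, and IgG clusters fell to 6. With equal numbers of peaks, the unshared gamma-H2Av width was 3171 bp (IgG 3577 bp), 46.8% of IgG peaks were in clusters and 69.9% of arm IgG peaks were unshared. An FDR of 5% or less left 18 arm IgG peaks. Then 97.9% of placed and 98.2% of arm gamma-H2Av peaks and 55.6% of arm IgG peaks were unshared, with 0 IgG clusters (0% of peaks), an IgG width of 6914 bp and distances of 0.277 (gamma-H2Av) and 9427 kb (IgG). Gaps of 20 kb gave 7 IgG clusters, with 66.3% of gamma-H2Av and 14.45% of IgG peaks in clusters, and gaps of 100 kb gave 87.6% and 61.95% with 26 clusters each. Clusters of at least 3 peaks held 88.6% and 63.4%, with 32 gamma-H2Av and 43 IgG clusters. With peaks within 1 kb merged, gamma-H2Av shares unshared were 58.6% (placed) and 67.2% (arms), widths 2992 and 4244 bp, distances 7.23 and 22.1 kb, and 12 and 10 clusters held 57.0% and 23.8%. Without 2L there were 16 gamma-H2Av and 12 IgG clusters, and gamma-H2Av had 70.05% unshared, a width of 3491 bp (IgG 3706 bp) and 77.4% in clusters. The cause of these shifts was not tested. No paired analysis was possible because each antibody has 1 library. The library depths are given above, and the smallest arm peaks rest on 13 (gamma-H2Av) and 10 (IgG) tags.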

Other observations

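Arm peaks under 1 kb had a higher median fold and a lower tag density than wider ones in both lists. The higher fold follows in part from the p-value limit, which short peaks of few tags pass only with a high fold. Unshared gamma-H2Av peaks under 1 kb had a median fold of 6.61 at 35.6 tags per kb, and those of 5 to 10 kb 3.995 at 62.8 tags per kb. Unshared IgG peaks under 1 kb had 7.21 at 38.7 tags per kb, and those of 5 to 10 kb 3.45 at 67.1 tags per kb. Fold was not lowest in the widest class: peaks of 10 kb or more had median folds of 5.245 (gamma-H2Av) and 4.42 (IgG) among the unshared, against 4.55 and 4.15 at 1 to 2 kb.

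The clusters outside the 15 ranked ones include a pair on X toward the high-coordinate end in which SuUR peaks covered more than those of OrR. X:21632770-21687448 held 5 unshared gamma-H2Av peaks and 14 SuUR peaks covering 26.9 kb, against 8.35 kb for OrR. X:21790496-21829282 held 6 and 4, covering 9.24 and 20.9 kb. In 3L:24078915-24525176 and 2L:17558227-17942683 SuUR peaks covered 184 and 115 kb, against 174 and 91.6 kb for OrR gamma-H2Av, while 2L:16989049-17266224, also made of narrow peaks, had no SuUR peak. Each strain was sampled once and called against its own input.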
